A study of Mus musculus with 9 samples.

Results

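The genes described here encode proteins that platelets store in granules or secrete, and they were found in the count table by matching gene identifiers to the symbols of a fixed list. All 10 were present among 35275 gene rows: Pf4, Ppbp, Vwf, Selp, Thbs1, Mmrn1, Clu, F13a1, Srgn and Mfge8. Megakaryocytes make proteins of this kind, pack most of them into alpha granules and pass the granules on to platelets, which release soluble cargo and expose granule membrane receptors such as P-selectin when activated. The factor XIII A subunit, the product of F13a1, is held mainly in the platelet cytosol. PF4, or platelet factor 4, is the best known of them as a ligand of heparin and heparan sulfate (HS), the sulfated sugar chains by which the cells here were sorted. Serglycin, the product of Srgn, carries sulfated sugar chains itself and retains basic proteins such as PF4 inside granules.

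RNA-seq was performed on megakaryocyte-erythroid progenitors (MEPs), the bone marrow cells that give rise to megakaryocytes and erythroid cells, from mice. MEPs were gated as Lin-ckit+CD34-FcγRII/IIIlo and separated by binding of HS3A8, a single-chain antibody fragment (scFv) against HS, at the middle of its binding distribution. HS3A8-high MEPs bound more and HS3A8-low MEPs bound less. Control MEPs were mock-sorted with MPB49, an scFv with no known epitope, and stand for MEPs irrespective of HS. No genetic change or treatment was named for any group in the labels. The study's methods list wild-type C57Bl/6 mice among others, age- and sex-matched, without saying which gave these libraries. Each group had 3 libraries, made from 25000 cells each. The replicates of the HS3A8 fractions were individual mice by the study's legend, which does not cover the control libraries. In bulk libraries, fewer cells of a type and less RNA per cell cannot be told apart.

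Library totals ran from 11781637 to 15850037 counts. One control library, replicate 1, stood apart, since its counts gave a chi-square over degrees of freedom of 196 and 150 against the other controls, which gave 9.61 against each other. Replicate 3 of both HS3A8 fractions carried the most granulocyte and monocyte transcripts. The summed level of 18 such markers was 2060 CPM (counts scaled to a common library size) in HS3A8-high replicate 3 and 5263 in HS3A8-low replicate 3. In replicates 1 and 2 it was 26.6 and 13.1 CPM for HS3A8-high and 187 and 319 for HS3A8-low. Control libraries had 129 to 221 CPM. Markers of erythroid cells (16 genes) summed to 16489 to 17231 CPM in HS3A8-high, 12694 to 13958 in HS3A8-low and 14172 to 15943 in control MEPs. Megakaryocyte markers other than the genes described here (9 genes) summed to 59.2 to 87.4, 142 to 243 and 116 to 166 CPM. Of these, Itga2b averaged 5.84 ± 1.97, 92.2 ± 30.5 and 54.7 ± 14.3 CPM (SD, n = 3). Gp5 stayed near level, at 45.2, 48.6 and 54.1 CPM on average, as did Gp1ba, at 11.3, 10.7 and 9.82. Gp6 was barely counted in any group, with 0, 4 and 1 counts over the libraries of each.

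Members of the list that the results turn on are shown first by sequence. Pf4 and Ppbp are neighbours in the chemokine cluster of chromosome 5, at chr5:90772435-90773383 and chr5:90768518-90770063 on the plus strand (GRCm38, GENCODE M21). Windows before RefSeq start sites (GRCm38.p6) were given for 7 of the 10 genes, in 9 windows. The 250 bases before the start of each gene that differed between the HS3A8 fractions, and of Ppbp, follow in the direction of transcription. Capitals mark TATAAA, a form of the TATA box, and CNGGAAG, a form of ETS family site, on either strand.

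Pf4, chr5:90772185-90772434, plus strand: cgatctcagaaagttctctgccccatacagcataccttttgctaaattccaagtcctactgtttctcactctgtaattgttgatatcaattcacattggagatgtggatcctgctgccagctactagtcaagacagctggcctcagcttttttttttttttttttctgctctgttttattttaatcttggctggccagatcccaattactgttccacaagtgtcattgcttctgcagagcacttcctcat
Ppbp, chr5:90768268-90768517, plus strand: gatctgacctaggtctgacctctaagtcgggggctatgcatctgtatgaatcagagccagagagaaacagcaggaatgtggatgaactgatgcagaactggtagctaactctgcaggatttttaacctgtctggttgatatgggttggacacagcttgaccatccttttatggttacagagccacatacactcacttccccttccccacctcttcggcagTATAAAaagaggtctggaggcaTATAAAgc
Srgn, chr10:62527446-62527695, minus strand: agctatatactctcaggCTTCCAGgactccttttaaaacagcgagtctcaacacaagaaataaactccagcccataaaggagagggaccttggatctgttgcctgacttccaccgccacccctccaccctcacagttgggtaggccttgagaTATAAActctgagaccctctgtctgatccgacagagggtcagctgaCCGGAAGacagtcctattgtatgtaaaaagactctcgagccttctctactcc
Mfge8, chr7:79149061-79149310, minus strand: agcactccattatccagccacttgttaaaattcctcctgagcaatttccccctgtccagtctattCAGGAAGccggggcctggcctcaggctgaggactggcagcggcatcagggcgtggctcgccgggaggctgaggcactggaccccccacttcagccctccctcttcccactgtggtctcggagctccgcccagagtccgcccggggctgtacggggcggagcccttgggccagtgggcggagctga

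Ppbp held the TATA string at 2 places, which began 30 and 8 bases before the start. The ETS string was present 2 times in the Srgn window shown, which also held 1 TATA string, and in 0 places of a second Srgn window, which held no TATA string either. It was present 1 time before Mfge8, and F13a1, with 1 match in 1 of its windows, was the remaining gene with the ETS string. Pf4 held neither string. Across 32851 windows of the same length, 26.6% held the ETS string and 12.4% the TATA string. The string AGATAA of GATA factors (9.99% of all windows) was in 0 of the 9 windows of these genes, as was TGAGTCA of the factor NF-E2 (4.46% of all windows). These are matches of these exact letters only, on both strands, and other forms of the sites were not sought.

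Pf4 was also the gene of the list with a primer pair among the study's qRT-PCR reagents, and both primers lie in counted exons. The forward primer, 21 bases, matched bases 292 to 312 of the 588-base Pf4 transcript of GENCODE M21, and the reverse primer, 23 bases, matched bases 373 to 395 on the other strand, for a product of 104 bases.

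Forward: accatctcctctgggatccat
Reverse: ccattcttcagggtggctatgag

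The first question was whether granule protein transcripts differed between MEPs with more and with less HS3A8 epitope. Pf4, Mfge8 and Srgn were higher in HS3A8-low MEPs, by 19.6-fold, 4.32-fold and 1.74-fold. These were 3 of the 9 genes of the list that passed the count filter, while 3.21% of 11791 genes were called higher in HS3A8-low (edgeR quasi-likelihood test, Benjamini-Hochberg adjusted p under 0.05). No gene of the list was called lower. Of the 9, Selp, Thbs1, Mmrn1, Clu and F13a1 (5 genes) reached the count filter only with their HS3A8-low libraries, so that the 9 are not a neutral sample of the list.

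**Figure D1:**
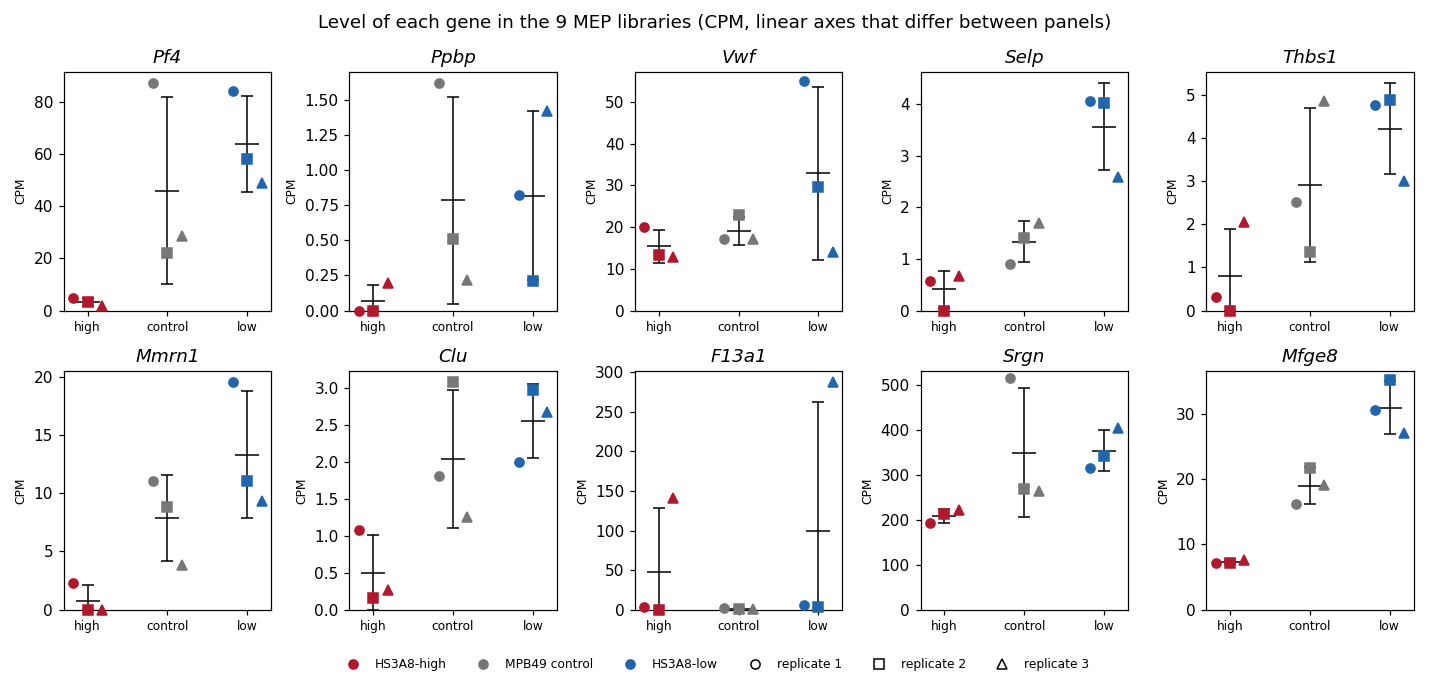
Level of each of the 10 genes in CPM (linear vertical axis, which differs between panels) in HS3A8-high, MPB49 control and HS3A8-low MEPs. Each symbol is 1 library, its shape gives the replicate number, and the bars show the mean and SD of 3 libraries, with the lower end stopped at 0; Pf4 lay between 1.85 and 4.77 CPM in the HS3A8-high libraries, and between 49 and 84.3 in those of HS3A8-low.

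Among the chemokines, Pf4 had 4.77, 3.36 and 1.85 CPM in the HS3A8-high replicates 1 to 3, and 84.3, 58.1 and 49 CPM in the HS3A8-low replicates. Each HS3A8-low library held over 10 times the level of the highest HS3A8-high library. On the log2 scale Pf4 was higher by 4.29 ± 0.383 (SE, adjusted p = 0.00712, edgeR). Within replicate numbers the log2 ratio of CPM, with 0.5 CPM added to both, was 4.01, 3.93 and 4.40. With both replicate 3 libraries left out, an alternative added after seeing the data, the log2 difference was 4.14 (adjusted p = 0.0025, edgeR).

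Ppbp, which encodes the precursor of the chemokine CXCL7 and of beta-thromboglobulin, was barely counted in any group. HS3A8-high libraries had 0, 0 and 3 counts, HS3A8-low libraries 14, 3 and 17, and control libraries 18, 8 and 3. A count of 0 allowed up to 0.191 and 0.229 CPM in those HS3A8-high libraries. Ppbp did not pass the count filter between the HS3A8 fractions. Summed over libraries, the HS3A8-low to HS3A8-high ratio was 11.6 (95% exact interval 3.64 to 58.8, counting error only). Although no HS3A8-low value lay below an HS3A8-high value, the nearest pair, 0.212 and 0.198 CPM, both came from 3 counts. Without the filter its log2 difference was 3.45 ± 1.31 (SE, adjusted p = 0.239, edgeR), which did not pass.

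Srgn, the granule proteoglycan, was the most abundant transcript of the list and differed by the smallest fold of those called. HS3A8-high libraries had 192, 213 and 222 CPM, and those of HS3A8-low 315, 343 and 404 CPM, with no overlap between the fractions. Its log2 difference was 0.80 ± 0.116 (SE, adjusted p = 0.0253, edgeR), and within replicate numbers it was 0.71, 0.69 and 0.86. The call was lost without replicate 1 (adjusted p = 0.0999) or 2 (adjusted p = 0.106) of HS3A8-high or replicate 2 of HS3A8-low (adjusted p = 0.124), and with all 9 libraries in 1 edgeR fit (0.211).

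Mfge8 encodes lactadherin, a secreted protein that binds phosphatidylserine on exposed membranes. It was even among HS3A8-high libraries, at 7.12, 7.17 and 7.67 CPM, and stood at 30.6, 35.1 and 27 CPM in HS3A8-low. Every HS3A8-low library was above 3 times each HS3A8-high library. The log2 difference was 2.11 ± 0.17 (SE, adjusted p = 0.00712, edgeR). Without HS3A8-low replicate 2, neither Mfge8 nor Pf4 passed (adjusted p = 0.0685 for both, edgeR), and in that fit 0 of 12194 genes passed, with 1900 at an unadjusted p under 0.05.

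Adhesive and carrier proteins of the alpha granule differed in how far their libraries separated. Mmrn1 encodes multimerin 1, which carries factor V in platelets. It had 36 counts in HS3A8-high replicate 1 and 0 counts in replicates 2 and 3, which allow up to 0.229 and 0.198 CPM. HS3A8-low libraries had 19.5, 11 and 9.35 CPM, all above the 2.29 CPM of HS3A8-high replicate 1. The log2 difference of 4.11 ± 1.32 (SE) did not pass (adjusted p = 0.144, edgeR). It did once replicate numbers entered the fit as a block, at 4.76 ± 0.898 (SE, adjusted p = 0.0275, edgeR), which made 4 genes of the list called higher beside 8.27% of all genes. It also passed without HS3A8-high replicate 1, where both remaining HS3A8-high libraries were at 0 (adjusted p = 0.0496, edgeR).

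Thbs1, for thrombospondin 1, an adhesive glycoprotein that binds heparin, was at 0.318, 0 and 2.05 CPM in the HS3A8-high replicates, against 4.77, 4.88 and 3 CPM for HS3A8-low. HS3A8-high replicate 3 was the highest of its group, while HS3A8-low replicate 3 was the lowest of its own. Both had the highest granulocyte and monocyte sums, at 2060 and 5263 CPM. The log2 difference was 2.42 ± 1.07 (SE, adjusted p = 0.271, edgeR) and became 4.61 without HS3A8-high replicate 3 (adjusted p = 0.0531, edgeR) and 4.78 with both replicate 3 libraries left out (adjusted p = 0.0282, edgeR). The part of the other cells in this value was not tested.

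Vwf encodes von Willebrand factor, the multimeric glycoprotein that tethers platelets to the vessel wall and is also made by endothelial cells. HS3A8-high libraries had 19.9, 13.4 and 12.9 CPM and HS3A8-low libraries 55, 29.6 and 13.9 CPM. HS3A8-low replicate 3 lay within the HS3A8-high range, and the log2 difference of 1.13 ± 0.474 (SE) did not pass (adjusted p = 0.25, edgeR), and was 0.52 without HS3A8-low replicate 1 (adjusted p = 0.454, edgeR). Endothelial markers (10 genes) summed to 48.4 to 54.9 CPM in HS3A8-high and 84.1 to 103 in HS3A8-low, of which Plvap made up 42.5 ± 2.77 and 37.8 ± 2.63 CPM (SD, n = 3). Of the 5 tested, Pecam1, Tek, Tie1 and Emcn (4 genes) were called higher in HS3A8-low, beside 3.21% of all genes. Emcn, at 0 counts in every HS3A8-high library, reached the count filter only with its HS3A8-low libraries. Tie1 had 0 to 12 counts per HS3A8-high library, so that the 5 are not a neutral sample. Tek went from 1.60 ± 0.523 to 13.1 ± 3.86 CPM (SD, n = 3; adjusted p = 0.0135, edgeR), while Cdh5 and Flt1 were at 0 in all 6 libraries. The part of endothelial cells in Vwf was not tested.

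Clu, for clusterin, a secreted chaperone, was low throughout, at 1.08, 0.153 and 0.265 CPM in the HS3A8-high replicates, against 2, 2.97 and 2.67 CPM for HS3A8-low. Selp encodes P-selectin, the leukocyte adhesion receptor of the alpha granule membrane, and had 0.572, 0 and 0.661 CPM against 4.07, 4.03 and 2.59. Neither gene's fractions overlapped. The log2 difference was 2.34 ± 0.703 (SE, adjusted p = 0.126, edgeR) for Clu and 3.58 without HS3A8-high replicate 1 (adjusted p = 0.0963, edgeR), and it passed by DESeq2 (adjusted p = 0.0469). For Selp it was 3.10 ± 0.846 (SE, adjusted p = 0.101, edgeR), and it passed by DESeq2 (adjusted p = 0.00333). Of the exon bases of Selp, 14.1% overlap genes on the opposite strand, Gm16587 and Gm16548, and whether the counting used the strand was not stated.

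F13a1 encodes the A subunit of coagulation factor XIII, the transglutaminase that cross-links fibrin, and is transcribed in monocytes as well as in megakaryocytes. HS3A8-high replicates had 3.24, 0 and 141 CPM, and HS3A8-low replicates had 5.54, 3.82 and 287 CPM. Replicate 3 of each fraction was the highest, and the same libraries had the highest granulocyte and monocyte sums, as the plot of F13a1 beside these markers shows. The log2 difference was 1.07 ± 2.07 (SE, adjusted p = 0.821, edgeR), -3.33 without HS3A8-low replicate 3 (adjusted p = 0.465, edgeR), 5.88 without HS3A8-high replicate 3 (adjusted p = 0.274, edgeR) and 1.52 without both replicate 3 libraries (adjusted p = 0.545, edgeR). With the replicate block the F13a1 difference was 1.28 ± 0.423 (SE, adjusted p = 0.107, edgeR), which did not pass. Within replicate numbers the log2 ratio of CPM, with 0.5 CPM added to both, was 0.69, 3.11 and 1.02. The part of granulocytes and monocytes in F13a1 was not tested.

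**Figure D2:**
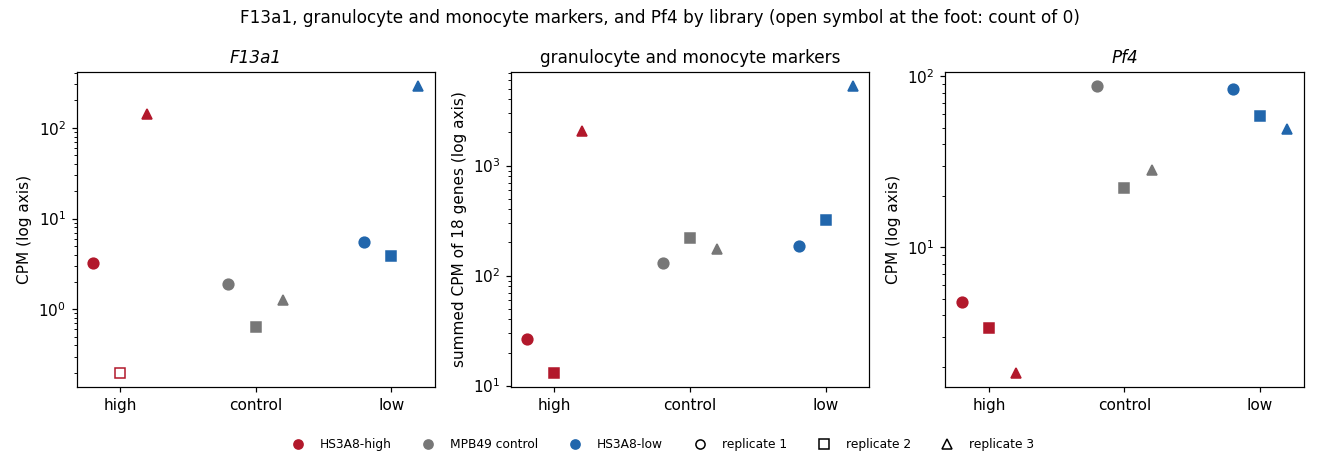
F13a1 (left, CPM), the summed level of 18 granulocyte and monocyte markers (middle, CPM) and Pf4 (right, CPM) by group on log vertical axes, with 1 symbol per library, shaped by replicate number, and an open symbol at the foot for a count of 0. Replicate 3 of HS3A8-high and HS3A8-low had 141 and 287 CPM of F13a1 and marker sums of 2060 and 5263 CPM, while Pf4 was lowest within each fraction in the same libraries, at 1.85 and 49 CPM.

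Of the 10 genes, 8 had every HS3A8-low library above every HS3A8-high library, Ppbp by the margin given above, and Vwf and F13a1 (2 genes) overlapped. Over the 11791 genes tested, 14.3% were separated in that way. Ppbp is not among those tested. Of the rest of the 8, Selp, Thbs1, Mmrn1 and Clu reached the count filter only with their HS3A8-low libraries, so the 2 shares are not on a like base.

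**Figure D3:**
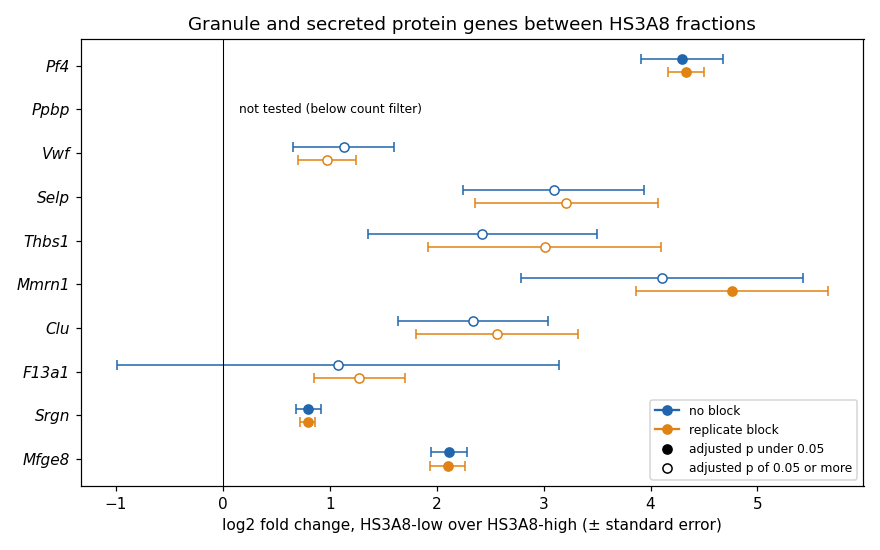
Log2 fold change of HS3A8-low over HS3A8-high MEPs (horizontal axis) for each gene, with its standard error, without (blue) and with (orange) a replicate block; filled symbols have an adjusted p under 0.05 (edgeR). Pf4, Srgn and Mfge8 passed in both fits, Mmrn1 with the block alone, and Ppbp was not tested.

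The second question was where MEPs irrespective of HS stood. The same 3 control libraries entered both comparisons with the control, so these are not independent of each other. Control MEPs had 87.2, 22.2 and 28.4 CPM of Pf4. The first of these is the library that stood apart, and its Pf4 and Srgn levels were the highest of all 9 libraries. HS3A8-high MEPs lay below every control library in Pf4, with a log2 difference of -3.80 ± 0.639 (SE, adjusted p = 0.213, edgeR) that did not pass. It passed with all 9 libraries in 1 edgeR fit (adjusted p = 0.048) and by DESeq2 (adjusted p = 1.93e-08), and was -2.92 without control replicate 1 (adjusted p = 0.104, edgeR). For HS3A8-low the log2 difference from control was 0.44 ± 0.53 (SE, adjusted p = 0.883, edgeR), and 1.34 without control replicate 1 (adjusted p = 0.288, edgeR).

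Mfge8 had 16.1, 21.7 and 19.1 CPM in control libraries, above all HS3A8-high and below all HS3A8-low libraries. The log2 difference was -1.39 ± 0.207 (SE, adjusted p = 0.193, edgeR) for HS3A8-high over control and 0.69 ± 0.193 (SE, adjusted p = 0.711, edgeR) for HS3A8-low over control. The former passed with all 9 libraries in 1 edgeR fit (adjusted p = 0.0236) and by DESeq2 (adjusted p = 3.01e-05). Srgn had 515, 269 and 264 CPM in control libraries. It differed from control by -0.76 ± 0.282 (SE, adjusted p = 0.733, edgeR) in HS3A8-high, and by -0.01 ± 0.303 (SE, adjusted p = 0.994, edgeR) in HS3A8-low. Without control replicate 1 these differences were -0.35 and 0.41.

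In the remaining genes other than F13a1, the control mean lay between the means of the fractions. Mmrn1 had 11, 8.78 and 3.83 CPM in control libraries, Thbs1 2.52, 1.35 and 4.86, and Clu 1.80, 3.07 and 1.25. Vwf had 17.1, 22.9 and 17.1 CPM and Selp 0.901, 1.41 and 1.69. F13a1 stood at 1.89, 0.641 and 1.25 CPM in control libraries, below every HS3A8-low library and within the range of HS3A8-high. Its log2 difference over control was 5.28 ± 2.07 (SE) in HS3A8-high and 6.31 ± 1.88 (SE) in HS3A8-low, and neither passed (adjusted p = 0.733 and 0.711, edgeR). Without replicate 3 of the fraction these became 0.36 and 1.88.

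For HS3A8-high over control, edgeR called 0 of the 9 genes tested, where 5 lower genes and F13a1, higher, had an unadjusted p under 0.05 (6 in all) and DESeq2 called 2, Pf4 and Mfge8, both lower. All genes gave 0% higher and 0.0174% lower calls in this comparison, with 562 of 11486 at an unadjusted p under 0.05, and 140 genes called lower by DESeq2. Pf4, Ppbp, Selp, Mmrn1, Clu, Srgn and Mfge8 (7 of 10) lay below control in every library, beside 6.85% of all genes tested, and 0 lay above, beside 7.58%. Ppbp was not among the genes tested, and its nearest pair, 0.198 and 0.221 CPM, again came from 3 counts each. Selp, Mmrn1 and Clu reached the count filter here only with their control libraries, so these shares are not on a like base. For HS3A8-low over control, edgeR called 0 of 10, where Selp, Mfge8 and F13a1 (3 genes) had an unadjusted p under 0.05 and DESeq2 called 0. All genes gave 0% higher calls, with 673 of 11878 at an unadjusted p under 0.05, and 91 genes called higher by DESeq2. Selp, F13a1 and Mfge8 (3 of 10) lay above control in every library, beside 8.11% of all genes.

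Levels can be compared between genes after division by exon length. In CPM per kb of exon, Srgn was first in every group, at 95.2 ± 7.04 in HS3A8-high, 159 ± 65.2 in control and 161 ± 20.7 in HS3A8-low (SD, n = 3). Pf4 was second in HS3A8-low, at 88.5 ± 25.4, and in control, at 63.7 ± 49.7, where its range overlapped that of Srgn. In HS3A8-high it stood at 4.61 ± 2.02, and F13a1, at 7.12 ± 11.9, took second place through replicate 3. In HS3A8-low F13a1 came next after Pf4, at 14.7 ± 24.2, where its range overlapped that of Mfge8. Mfge8 was at 1.56 ± 0.0646, 4.04 ± 0.588 and 6.58 ± 0.875 in HS3A8-high, control and HS3A8-low, behind F13a1 and Pf4 in both fractions and behind Pf4 in control. Mmrn1 and Vwf overlapped each other in control and HS3A8-low, with means from 1.19 to 2.27 CPM per kb. In HS3A8-high, Vwf (0.958 ± 0.244) lay above the 5 lowest genes, which were between 0.0611 and 0.145 on average and overlapped from neighbour to neighbour. In HS3A8-low, Selp, Ppbp, Clu and Thbs1 lay between 0.695 and 0.807 and were not separated from each other in that order.

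**Figure D4:**
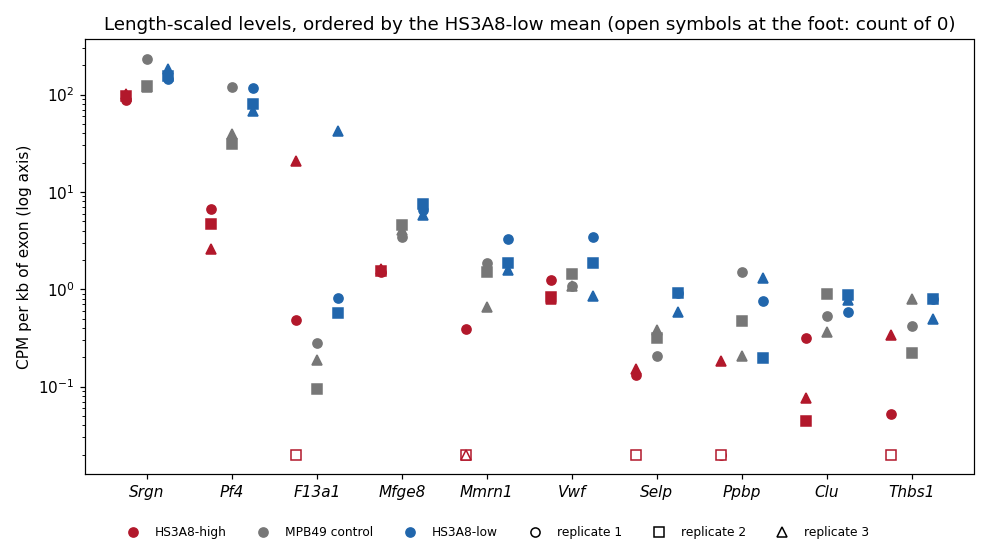
Length-scaled level (CPM per kb of exon, log vertical axis) of each gene in each library, ordered from left to right by the HS3A8-low mean, with groups by colour and replicate numbers by shape; open symbols at the foot are counts of 0. Srgn led in all groups, and Pf4 averaged 88.5 CPM per kb in HS3A8-low and 4.61 in HS3A8-high.

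Genes whose profile over the 9 libraries was most like that of Pf4 were sought among the 9326 genes that averaged 5 CPM or more, by the root mean square difference of centred log2 CPM. The SD of Pf4 itself was 2.08 on that scale. The nearest 5 were Itga2b, the integrin alpha IIb chain, at 0.437, Cavin2, a caveolar coat protein, at 0.515, Pear1, a platelet aggregation receptor, at 0.727, Fgf3, a growth factor, at 0.734, and Dok2, a signalling adaptor, at 0.738. For Srgn, whose SD was 0.463, they were Ints6l (0.0979), Smim5 (0.118), Sfi1 (0.125), Gsdmd (0.126) and Ube2b (0.131). The measure is not scaled by SD, so a gene this near to Pf4 could not also be this near to Srgn. The 2 sets were therefore not compared.

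Other cargo of platelet granules was examined as a list of 42 genes, of which 18 passed the count filter between the HS3A8 fractions. Of these, 5 were called higher in HS3A8-low and 0 lower, beside 3.21% higher and 0.611% lower of all genes. Ccl5, Egf, Vegfc, Hgf, Serpine2, Timp3 and Treml1 (7 of the 18) reached the filter only with their HS3A8-low libraries, so that the 18 are not a neutral sample either. Treml1, a receptor of the alpha granule membrane, rose from 0.766 ± 0.276 CPM in HS3A8-high to 5.85 ± 1.36 in HS3A8-low (adjusted p = 0.0196, edgeR). Angpt1, for the TIE2 ligand angiopoietin 1, went from 11.6 ± 3.51 to 60.4 ± 25.5 CPM (adjusted p = 0.0257, edgeR), and Cd63, for a granule membrane tetraspanin, from 25.4 ± 5.59 to 60.5 ± 15.9 CPM (adjusted p = 0.0392, edgeR; SD, n = 3 in each case). Of the exon bases of Angpt1, 14.2% overlap a gene on the opposite strand.

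The other two called cargo genes were low. Timp3, a metalloproteinase inhibitor, went from 0.188 ± 0.101 to 3.15 ± 1.87 CPM (SD, n = 3; adjusted p = 0.0312, edgeR), and 21.3% of its exon bases overlap Syn3 on the opposite strand. Vegfc, a growth factor of lymphatic vessels, had 1 count over the HS3A8-high libraries and 41 over the HS3A8-low libraries (adjusted p = 0.0357, edgeR), a ratio of 41.8 with a 95% exact interval of 7.1 to 1691. Among the most abundant cargo transcripts, Aplp2, for a homologue of the amyloid precursor protein, averaged 820 ± 63.5 CPM among HS3A8-high libraries, against 628 ± 10.8 for HS3A8-low (SD, n = 3; adjusted p = 0.0569, edgeR). Lgals3bp had 428 ± 31.3 and 378 ± 16.9 CPM (adjusted p = 0.407, edgeR), and Tgfb1, the growth factor of alpha granules, 169 ± 11.8 and 200 ± 31.5 CPM (SD, n = 3; adjusted p = 0.294, edgeR).

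The cargo calls changed with the fit. Blocked by replicate number, 9 were called higher and 1 lower, Aplp2 (adjusted p = 0.0269, edgeR), beside 8.27% higher and 3.32% lower of all genes. None of the cargo genes was called by edgeR after replicate 1 or 2 of either fraction had been left out, and 2 were without HS3A8-low replicate 3. Calls over all genes fell as well, from 3.82% to 0.343% and 0.427% without HS3A8-high replicate 1 and 2. They fell to 0.464%, 0% and 2.01% without HS3A8-low replicate 1, 2 and 3. Against control, edgeR called 0 of 16 for HS3A8-high (5 at an unadjusted p under 0.05, 3 by DESeq2) and 0 of 20 for HS3A8-low (3 at an unadjusted p under 0.05, 2 by DESeq2). Over all genes, edgeR called 0.0174% and DESeq2 0.791% for HS3A8-high, with 562 of 11486 at an unadjusted p under 0.05 (edgeR). For HS3A8-low these were 0%, 0.514% and 673 of 11878.

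Genes of granule formation and release form the machinery that fills, moves and fuses granules. Of 42 listed, 41 were matched and tested, and 3 were called higher in HS3A8-low, beside 3.21% of all genes, with a median log2 difference of 0.06 beside 0.03 over all genes. Slc18a2, the vesicular transporter that loads serotonin into dense granules, rose from 5.96 ± 1.55 CPM in HS3A8-high to 46.5 ± 10 in HS3A8-low (SD, n = 3; adjusted p = 0.00712, edgeR). Slc35d3, needed for dense granules, rose from 1.02 ± 0.601 to 5.77 ± 1.46 CPM (SD, n = 3; adjusted p = 0.0451, edgeR). It was the gene of this list that reached the count filter only with its HS3A8-low libraries. Vamp2, a vesicle fusion protein, rose from 26.9 ± 2.66 to 42.8 ± 3.63 CPM (SD, n = 3; adjusted p = 0.0364, edgeR).

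With the replicate block 8 were called higher and 0 lower, beside 8.27% and 3.32% of all genes. Rab27a and Rab27b, which dock granules at the membrane, were among them at 1.35 ± 0.21 and 2.07 ± 0.233 on the log2 scale (SE, adjusted p = 0.0182 and 0.00777, edgeR), as was Dtnbp1, a subunit of the granule assembly complex BLOC-1, at 0.40 ± 0.0917 (SE, adjusted p = 0.0465, edgeR). The most abundant genes of this list did not pass without or with the block. Lamp1, a lysosome and granule membrane protein, had 443 ± 26.7 and 414 ± 54 CPM (SD, n = 3), Stx2, a fusion protein of the plasma membrane, 289 ± 33 and 251 ± 39 CPM, and Napa, which recycles fusion proteins, 265 ± 15.4 and 235 ± 21.4 CPM for HS3A8-high and HS3A8-low, in that order. Calls numbered 0 without HS3A8-low replicate 2 and 1 after leaving out replicate 1 or 2 of HS3A8-high or replicate 1 or 3 of HS3A8-low. The shares of all genes called in these fits are those given for the cargo genes, from 0% to 2.01%. Against control, edgeR called 0 of 41 in each fraction (3 at an unadjusted p under 0.05 in each, with 1 call by DESeq2 for HS3A8-high and 0 for HS3A8-low). Over all genes, DESeq2 called 0.791% and 0.514%, and edgeR 0.0174% and 0%, in that order.

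**Figure D5:**
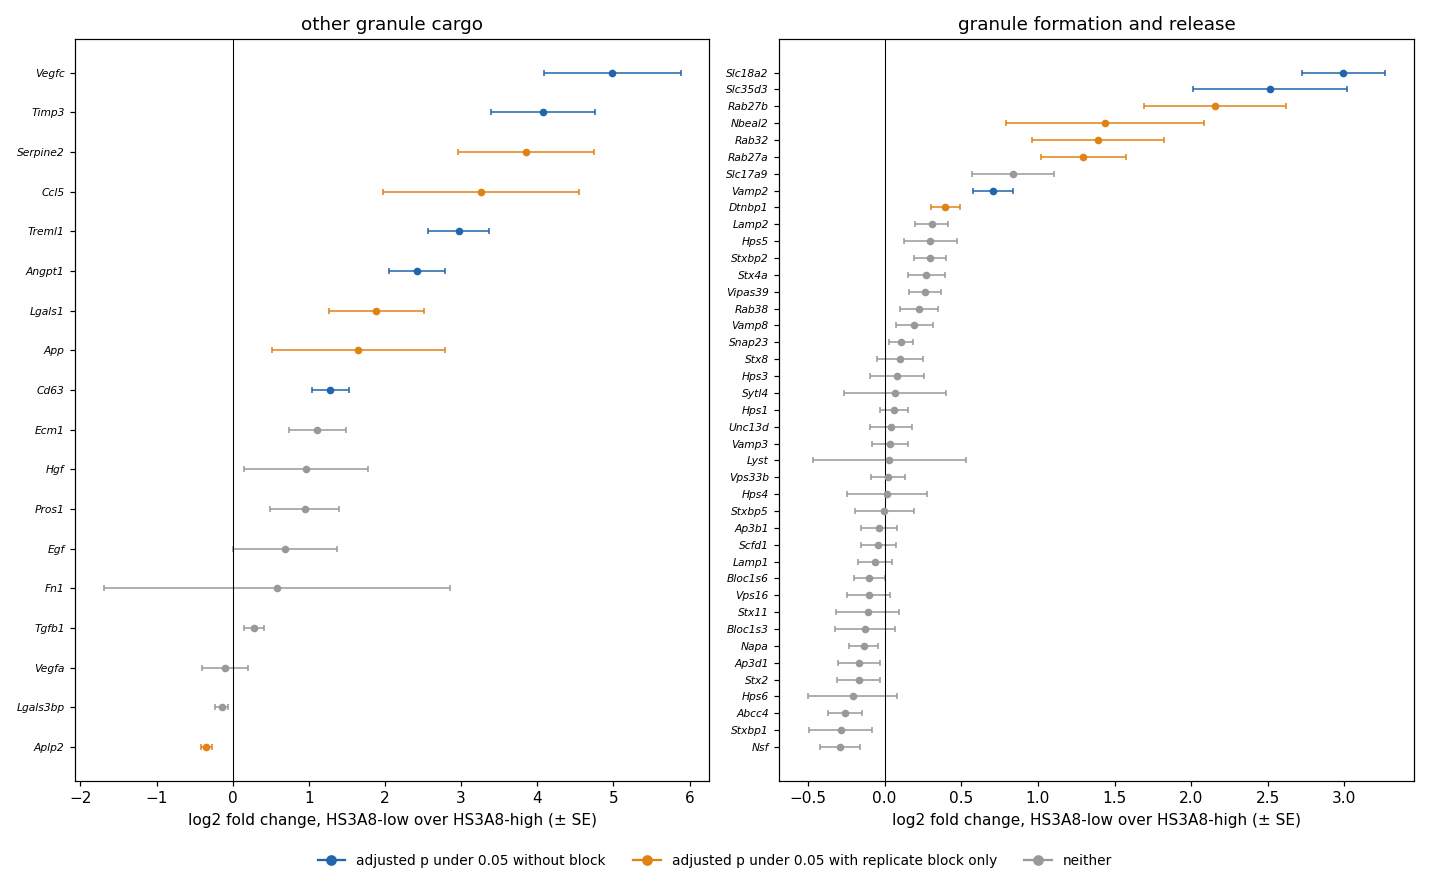
Log2 fold change of HS3A8-low over HS3A8-high MEPs (horizontal axis, with its standard error) for 18 cargo genes (left) and 41 genes of granule formation and release (right), ordered by size. Blue genes passed an adjusted p under 0.05 without a block (5 and 3), orange genes with the replicate block alone, and grey genes in neither fit.

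Marker sums of further cell types moved between the same fractions, and their part in the levels above was not tested. Stem and multipotent progenitor markers (9 genes) summed to 47.6 to 60 CPM in HS3A8-high, 174 to 198 in HS3A8-low and 122 to 134 in control MEPs. T and NK cell markers (12 genes) summed to 3.97 to 34.2, 137 to 167 and 41.5 to 104 CPM, with Cd4 at 0 in all libraries of both fractions. Trbc1 and Nkg7 (2 of 9 tested) were called higher in HS3A8-low, beside 3.21% of all genes, and Trbc1 had 2 to 12 counts per HS3A8-high library. Of the 9, all but Nkg7 reached the count filter only with their HS3A8-low libraries, so that the 9 are not a neutral sample. Trbc1 went from 0.421 ± 0.333 to 23.5 ± 1.67 CPM (SD, n = 3; adjusted p = 0.00712, edgeR). Basophil and mast cell markers (9 genes) ran from 1.65 to 80.7, 21.3 to 165 and 10.1 to 22.2 CPM, with Tpsb2 and Mcpt4 at 0 throughout. Macrophage markers (12 genes) ran from 10.7 to 33.8, 23.7 to 55.2 and 17.9 to 28.3 CPM. Of the granulocyte and monocyte markers given above, edgeR called 0 of 13 tested between the HS3A8 fractions. With the replicate block edgeR called 9, and 12 had an unadjusted p under 0.05, all higher in HS3A8-low. Over all genes, 8.27% were called higher in that fit. Apart from Mpo, Prtn3, Lyz2 and Irf8, the 13 reached the count filter only with their HS3A8-low libraries, so they are not a neutral sample. B cell markers (8 genes) stayed at or under 13.5 CPM with Pax5 and Ms4a1 at 0 throughout. Of the 4 genes of the MEP gate, Kit had 640 ± 159, 538 ± 167 and 566 ± 142 CPM in HS3A8-high, HS3A8-low and control MEPs. Cd34, which the gate selects against, had 5.04 ± 5.29, 54.5 ± 23.4 and 32.5 ± 15.5 CPM (SD, n = 3). Between the HS3A8 fractions edgeR called 0 of the 4, with 1 at an unadjusted p under 0.05 and 1 called by DESeq2 (Cd34 in both). With the replicate block 3 were called higher in HS3A8-low, beside 8.27% of all genes. Fcgr2b and Fcgr3 reached the count filter only with their HS3A8-low libraries.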

How the data were processed

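Bulk RNA-seq libraries of mouse bone marrow MEPs (3 groups of 3) were sequenced and processed by the authors, who deposited raw counts per gene, not normalized or pooled. The submitters' processing notes name STAR 2.5, HTSeq 0.6.1 and mm10. The annotation release and the use of strand are not given in the sources used here, so genes that overlap on opposite strands may share reads. Identifiers were joined to symbols and exon lengths of GENCODE M21 (GRCm38), and 34490 of 35275 matched. The genes described and all lists were chosen with earlier results of these data known. Named genes of the 2 granule lists were the called ones, at most the 6 of smallest p per comparison, and the 3 of highest mean CPM.

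Counts were tested in R 4.3.3 with the quasi-likelihood test of edgeR 4.0.16 (TMM, filterByExpr with a minimum count of 10, Benjamini-Hochberg adjustment, threshold 0.05) in the libraries of the 2 groups compared. SE is the log2 fold change over the square root of F. CPM are TMM-scaled over all 9 libraries. Alternatives were DESeq2 1.42.0 and its size factors, all 9 libraries in 1 fit, no filter, a filter at a mean count of 10, a replicate block, each library left out and, added after seeing the data, both replicate 3 libraries left out. DESeq2 gave no adjusted p for F13a1. Control libraries are not stated to come from separate mice, so their p-values may measure technical spread. Methods were run on simulated counts with large changes and no replicate effect, which cannot check the block on paired libraries or small differences.

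Totals of 11781637 to 15850037 counts put the 3 counts that a count of 0 allows at 0.189 to 0.255 CPM. Intervals and these limits cover counting error only.

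Pairing was checked over 11791 genes by the correlation of deviations from the group means. Between HS3A8-low and HS3A8-high, libraries of the same number gave r = 0.518, 0.346 and 0.515, so that the numbers, which come from the sample titles, pair these libraries. The main fits did not use this pairing. Blocked results are printed where they change a call, and for F13a1. For the other called genes the blocked adjusted p was 0.000847 (Pf4), 0.00324 (Mfge8) and 0.00401 (Srgn, edgeR). It was 0.0638 for Selp, 0.0705 for Vwf, 0.0824 for Clu and 0.13 for Thbs1 (edgeR), which did not pass. With control libraries the same-number r was -0.355 to 0.0288, and no pairing was used. Protein sequences were not used here.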

Additional observations from a re-analysis of the deposited data

How the results depend on the processing

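In HS3A8-low over HS3A8-high, 3 genes of the list were called. DESeq2 called 5 and the replicate block 4, beside 6.76% and 11.6% of all genes. Leaving out each library gave 0 to 3, beside 0% to 3.61% of all genes. It gave 0 without HS3A8-low replicate 2, a fit in which no gene of the table passed. Other cargo gave 5 calls, and 8 by DESeq2, 10 with the replicate block and 0 to 6 with libraries left out. Granule formation and release gave 3 calls, and 7 by DESeq2, 5 without a count filter, 5 without both replicate 3 libraries, 8 with the replicate block and 0 to 3 with libraries left out. In HS3A8-high over control, where edgeR called 0 in each list, DESeq2 called 2, 3 and 1, and all 9 libraries in 1 fit called 2 genes of the main list and 1 of granule formation. In HS3A8-low over control, DESeq2 called 2 cargo genes. The causes of these shifts were not tested.

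Over all genes, HS3A8-low over HS3A8-high gave 451 calls (3.82% of those tested), 1224 by DESeq2 (6.76%) and 1367 with the block (11.6%). It gave 455 without a filter (2.51%), 748 without both replicate 3 libraries (6.29%) and 0 to 439 with libraries left out (0% to 3.61%). HS3A8-high over control gave 2 calls (0.0174%), 140 by DESeq2 (0.791%), 32 with all 9 libraries in 1 fit (0.264%) and 9 without a filter (0.0508%). HS3A8-low over control gave 0 and, by DESeq2, 93 (0.514%).

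Direction turned in 3 cases, none of them called. F13a1 in HS3A8-low over HS3A8-high ran from -3.33 to 5.88 with libraries left out, at -3.33 without HS3A8-low replicate 3. That fit kept HS3A8-high replicate 3, and with the replicate block the difference was 1.28. Ppbp in HS3A8-low over control was 0.04 and ran from -0.57 to 1.12 with libraries left out, at -0.57 without HS3A8-low replicate 3, 1.12 without control replicate 1, -0.20 without control replicate 2 and -0.41 without control replicate 3. Srgn in HS3A8-low over control was -0.01, and became 0.019 without a filter, 0.071 with the replicate block and -0.18 to 0.41 with libraries left out (0.07, 0.02 and 0.41 without HS3A8-low replicate 1, HS3A8-low replicate 2 and control replicate 1). Beside the Mmrn1 call, the replicate block changed no call of the 10 genes. Control libraries share only a number with the fractions, and the block there called 0 genes. Depth limits Ppbp, Clu, Selp, Thbs1 and Mmrn1, which had 0 to 36 counts per HS3A8-high library.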
